A study of Mus musculus with 16 samples.

Results

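The 6 genes described here are Arntl, Npas2, Clock, Cry1, Cry2 and Nfil3, which are activators of the circadian clock or repressors that accompany them. They were chosen by name, as the probes whose gene name on the array equals a member. They are 6 of 37074 gene names, read by 15 of 56605 probes. The members, and the lists of genes set beside them below, were chosen with earlier results of these data known. Their ranks and p-values therefore do not stand for genes picked blind to the data. A filter on dim probes left 20403 gene names for testing, and 5 of the 6 members passed it. Npas2 did not, since its only probe was not well above background on any of the 16 arrays.

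Liver RNA was measured in conventional C57Bl/6 male mice, 1 Agilent microarray per mouse, in 3 groups. All recipients ate normal chow (NC), never received antibiotics, were 6 weeks old when the 4 weeks on chow began and are labelled as 10 weeks old. Conv + PBS mice (n = 6) were gavaged 2 times with the vehicle, reduced PBS, and are labelled as not transplanted. Conv + LM mice (n = 5) received caecal content of lean NC-fed donors in the same way, and Conv + OM(HFD) mice (n = 5) that of donors made obese by a high-fat diet. The inocula were pooled from donors. Mice were housed 5 to 6 per cage under an inverted cycle with 12 h of dark from 10:00 and were killed after a 6-h fast. The hour of death and the cage of each mouse are not given in the sources used here, so group and cage cannot be told apart. Every value below is log2 of the background-subtracted brightness of a probe minus the 75th percentile of its array, so that 0 is the brightness of that percentile. Since probes differ in how brightly they report a transcript, levels are compared between mice and not between genes.

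The circadian clock is a transcriptional feedback loop that runs in nearly every cell. BMAL1, the product of Arntl, pairs with CLOCK, or with its paralogue NPAS2, and the pair binds E-boxes to activate the Per and Cry genes, whose products then repress the pair. CRY1 and CRY2 are the cryptochrome repressors. A second loop acts on Arntl itself, since the nuclear receptors of the ROR family activate it and the REV-ERB proteins (Nr1d1, Nr1d2) repress it through the same DNA element, the RORE. NFIL3, also named E4BP4, is a repressor that shares D-box sites with the activators DBP, TEF and HLF. In the liver this clock sets daily rhythms of glucose, lipid and bile acid metabolism, and feeding is a strong cue for its phase.

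The elements of both loops lie near the start sites of several members, and the windows that hold them are shown because some members share an element and others hold none. In RefSeq promoter windows of GRCm38.p6, from 250 bases before to 50 bases after each start site, 6 of 6 members were found, with 2 windows for Arntl, 3 for Clock and 1 for each of the others. The RORE core was searched as TAGGTCA, the E-box as CACGTG, a variant E-box as CACGTT and the D-box as TTATGTAA or TTATGCAA, each on both strands. Capitals mark the match in the 30 bases around it, written 5′ to 3′ on the strand of the gene.
Arntl, RORE core on the strand of the gene, chr7:113207529-113207558: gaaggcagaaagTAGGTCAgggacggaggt
Nfil3, RORE core on the opposite strand, chr13:52981034-52981063: ggcgctcggaacTGACCTActaacacacat
Cry1, E-box, chr10:85185097-85185126: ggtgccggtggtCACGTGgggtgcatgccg
Cry1, variant E-box on the opposite strand, chr10:85185116-85185145: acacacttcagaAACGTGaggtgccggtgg
Cry2, variant E-box on the opposite strand, chr2:92434218-92434247: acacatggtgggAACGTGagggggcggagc

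Arntl lies on the plus strand and Nfil3, Cry1 and Cry2 on the minus strand of their chromosomes. The start site of the Arntl window printed above lies inside the gene, which spans 113178471 to 113314126. Counted from the start site to the first base of the match on the strand of the gene, the RORE core lay at 30 in Arntl and −12 in Nfil3, the E-box of Cry1 at −60, and the variant E-boxes of Cry1 and Cry2 at −79 and −166. The RORE core occurred in 2.61% of all 32851 windows, the E-box in 7.15%, the variant E-box in 4.68% and the D-box letters in 0.938% (TTATGTAA) and 0.743% (TTATGCAA). No window of Clock or Npas2 held any of these letters. A match is a string of letters in a window, and binding was not measured.

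Some livers and markers stood apart in genes other than the members. Conv + PBS mouse 1 and Conv + OM(HFD) mouse 25 had a log2 level of 4.23 and 4.20 for the summed signal of 4 of 5 neutrophil markers (Retnlg was below the filter), where the other 14 livers lay between −0.41 and 0.43. For the summed signal of 5 Kupffer cell markers they had 7.0 and 5.85, against 4.13 to 5.04 in the others. All 7 hepatocyte markers were expressed, with log2 of their summed signal from 11.12 to 11.51, while 2 of 4 adipose (not Adipoq or Retn), 2 of 4 pancreas (not Pnlip or Cpa1) and 1 of 3 muscle markers (not Acta1 or Ckm) passed the filter. For the summed signal of the 2 adipose markers measured, Plin1 and Cfd, Conv + LM mouse 15 stood at 2.75, where the other 15 livers lay between −4.90 and −0.55. Without this mouse, 0 of 5 members passed an unadjusted limma p of 0.05 in each comparison, and Cry2 stood at −0.20 between the inocula. Against vehicle, 2 of 4 stellate cell markers (Lrat and Dcn) and 1 of 5 endothelial markers (Clec4g) were lower with the HFD-microbiota at an unadjusted limma p under 0.05, as were 1.73% of all genes. The other members of these lists did not pass, with log2 fold changes from −0.34 (Reln) to 0.64 (Col1a1) for the stellate markers and from −0.26 (Kdr) to 0.17 (Lyve1) for the endothelial markers. Between the inocula Lrat (−0.38) and the pancreas marker Cel (−0.55) were lower with the HFD-microbiota, as were 1.15% of all genes. In bulk liver, fewer cells of a type and less RNA per cell cannot be told apart. Leaving out Conv + PBS mouse 1 and Conv + OM(HFD) mouse 25 together, chosen after seeing the data, left 0 of 5 members at an unadjusted limma p under 0.05 in each comparison.

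Among the activators, Arntl varied widely between livers of the same group and little between groups. In Conv + PBS mice 1 to 6 its log2 level was −2.78, −2.89, −1.85, −1.14, −1.26 and −0.35. In Conv + LM mice 13 to 17 it was −3.28, −1.81, −1.17, −1.45 and −0.24. In Conv + OM(HFD) mice 25, 26, 28, 29 and 30 it was −2.83, −1.69, −1.63, −1.12 and 0.18. The lowest livers of the 3 groups stood at −2.89, −3.28 and −2.83 and the highest at −0.35, −0.24 and 0.18, so the groups overlapped over nearly their whole range. The liver with the most Arntl, of Conv + OM(HFD) mouse 30, held 11.1 times the signal of the liver with the least, of Conv + LM mouse 13. The group accounted for 1.6% of the variance of Arntl over the 16 mice.

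Clock, which encodes the partner of BMAL1, spanned a smaller range. Its log2 level was 1.01, 0.95, 1.34, 1.11, 1.37 and 1.84 in Conv + PBS mice 1 to 6. It was 1.26, 1.18, 1.57, 1.43 and 1.84 in Conv + LM mice 13 to 17. In Conv + OM(HFD) mice 25, 26, 28, 29 and 30 it was 1.24, 1.45, 1.37, 2.01 and 2.19. Mice 29 and 30 exceeded every other mouse, and the remaining Conv + OM(HFD) livers lay among those of the other groups. From the lowest to the highest liver Clock differed 2.36-fold.

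Of the cryptochromes, Cry1 varied more than Cry2 as read by the probe used for each gene, and other probes of Cry2, described below, varied more than this one. Cry1 was −2.62, −2.39, −2.27, −1.88, −1.47 and −1.12 in Conv + PBS mice 1 to 6. It was −2.42, −2.66, −2.24, −2.11 and −1.75 in Conv + LM mice 13 to 17, and −2.86, −2.14, −2.20, −1.94 and −1.32 in Conv + OM(HFD) mice 25, 26, 28, 29 and 30. The highest Cry1 level belonged to Conv + PBS mouse 6 and the lowest to Conv + OM(HFD) mouse 25, with a 3.34-fold difference. Cry2 was 3.55, 3.51, 3.47, 3.32, 3.57 and 3.66 in Conv + PBS mice 1 to 6. It was 3.51, 3.82, 3.56, 3.63 and 3.55 in Conv + LM mice 13 to 17, and 3.43, 3.47, 3.56, 3.42 and 3.28 in Conv + OM(HFD) mice 25, 26, 28, 29 and 30. The whole range of this Cry2 probe was 1.45-fold, from Conv + OM(HFD) mouse 30 to Conv + LM mouse 14, and the groups again overlapped.

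Nfil3 also varied widely within groups. It was 2.33, 1.70, 2.84, 2.80, 3.32 and 3.67 in Conv + PBS mice 1 to 6. It was 1.90, 1.98, 2.47, 2.89 and 3.52 in Conv + LM mice 13 to 17, and 2.51, 2.38, 3.22, 3.11 and 3.68 in Conv + OM(HFD) mice 25, 26, 28, 29 and 30. The highest livers of the groups were close to each other, at 3.67, 3.52 and 3.68, and the lowest liver, of Conv + PBS mouse 2, held 3.96 times less signal than the highest, of Conv + OM(HFD) mouse 30.

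**Figure D1:**
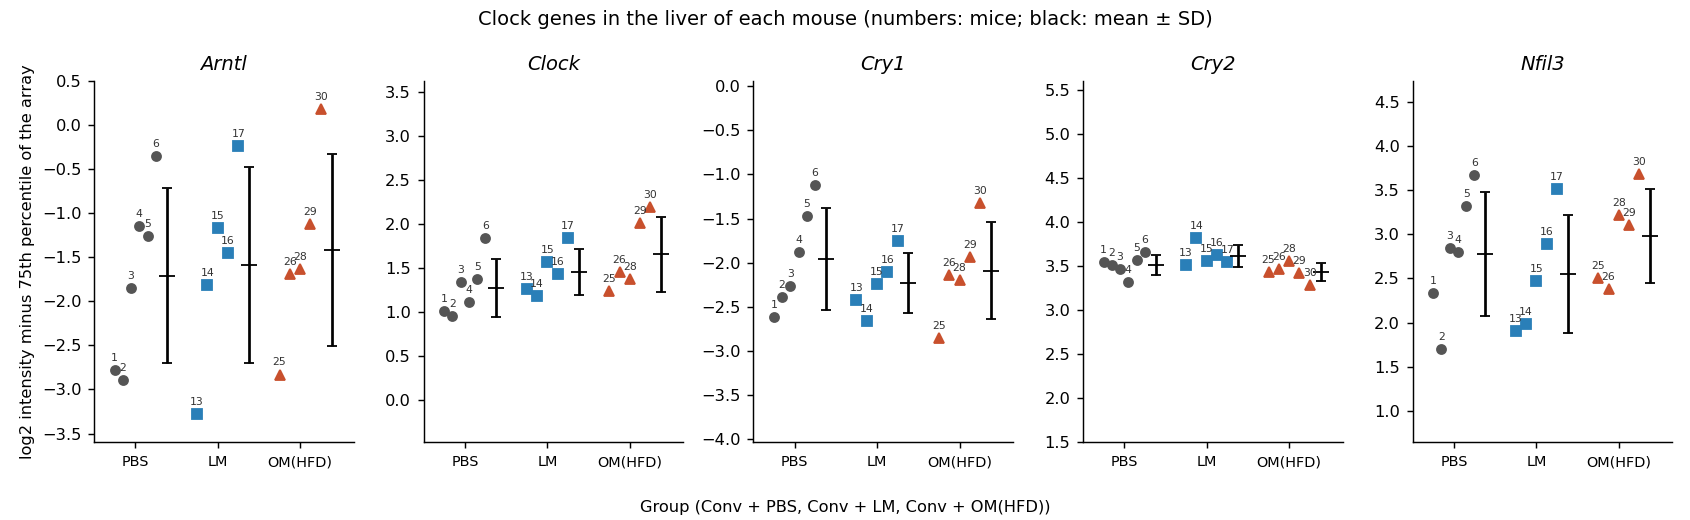
Level of Arntl, Clock, Cry1, Cry2 and Nfil3 in each of the 16 livers, as log2 intensity minus the 75th percentile of the array (vertical axes span the same range in log2 units), by group. Numbers are mice and black bars are means with SD; mice 6, 17 and 30 were highest in their groups for Arntl, Clock, Cry1 and Nfil3, while the Cry2 probe shown was nearly flat.

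In terms of the spread among mice of the same group, the pooled within-group SD was 1.06 for Arntl on the log2 scale, 0.65 for Nfil3, 0.51 for Cry1, 0.34 for Clock and 0.11 for Cry2. The median over the 20403 genes tested was 0.24. Arntl ranked 333rd, so that 98.4% of the genes tested had a smaller SD, and the same share was 91.7% for Nfil3, 85.2% for Cry1, 69.9% for Clock and 6.99% for Cry2. The value of Cry2 holds for the probe used, and its other 2 probes had an SD of 0.27 and 0.35, above the median of all genes. With normexp background correction the SD of Arntl was 0.60 and that of Cry1 0.33. Since dim probes tend to vary more, these shares were also taken among genes of a similar level. Among genes within 0.5 of the mean level of Arntl (2118 genes, median SD 0.26), 99.5% had a smaller SD, and the corresponding share for Cry1 was 87.7%. At the levels of Nfil3 and Clock it was 98.7% and 89.3%, and at that of Cry2 16.6%.

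**Figure D2:**
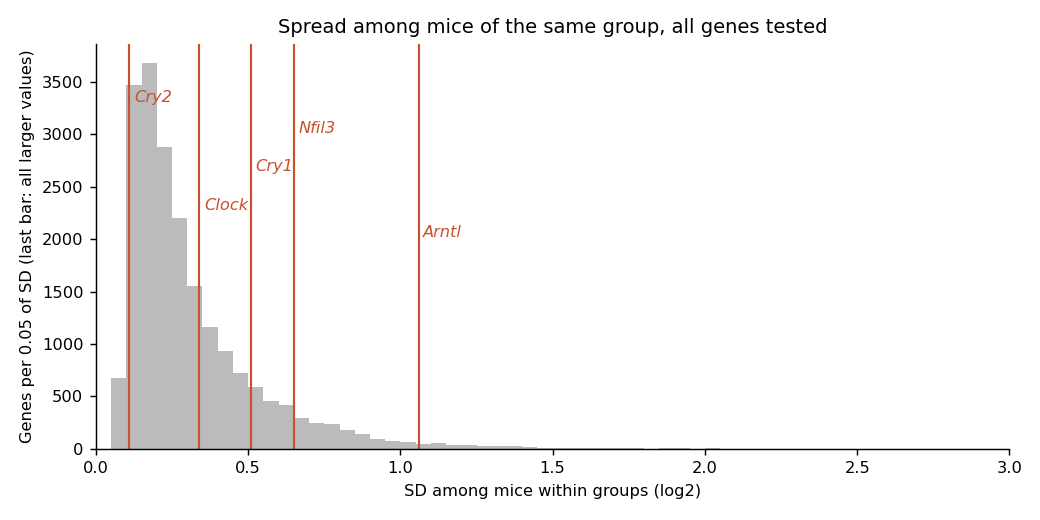
Distribution of the pooled SD among mice of the same group (log2) over 20403 genes tested, with the members marked by lines. Arntl (1.06), Nfil3 (0.65) and Cry1 (0.51) lie in the upper tail and the probe used for Cry2 (0.11) near the lower end.

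To ask whether the inoculum changed these genes, the groups were compared in limma with all 3 groups in 1 fit. With the HFD-microbiota, 0 of the 5 members passed an unadjusted p of 0.05 against vehicle, where 3.26% of all genes did (1.53% higher and 1.73% lower). The exact permutation test also gave 0 of 5 (3.22% of all genes). Clock came nearest, with means of 1.65 ± 0.42 (SD, n = 5) and 1.27 ± 0.33 (SD, n = 6). Its log2 fold change was 0.38 (SE 0.20), the limma p 0.0704 and the exact permutation p 0.132, and the 95% confidence interval, as a fold, ran from 0.975 to 1.74. Clock passed the unadjusted threshold on the processed values of the authors (log2 fold change 0.43) and with normexp background correction (0.39). It also passed without Conv + PBS mouse 6 (0.50), without Conv + OM(HFD) mouse 25 (0.49) and without Conv + OM(HFD) mouse 28 (0.45). It fell to 0.25 without Conv + OM(HFD) mouse 30 and to 0.30 with the mean of all probes, and did not pass there. For Arntl the log2 fold change was 0.29 (SE 0.59), with an exact permutation p of 0.636 and an interval from 0.511 to 2.94 as a fold. Nfil3 stood at 0.21, Cry1 at −0.13 and Cry2 at −0.08 (exact permutation p = 0.610, 0.701 and 0.264). The sign of Arntl, Cry1 and Nfil3 rested on single mice. Without 1 mouse at a time Arntl ranged from −0.11 (without Conv + OM(HFD) mouse 30) to 0.65 (without mouse 25), Cry1 from −0.33 to 0.06 and Nfil3 from −0.01 to 0.39.

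With the lean microbiota, 0 of the 5 members passed against vehicle in limma or in the exact permutation test, where 3.95% (1.72% higher and 2.23% lower) and 3.99% of all genes did. The log2 fold changes were 0.12 for Arntl, 0.18 for Clock, −0.28 for Cry1, 0.10 for Cry2 and −0.23 for Nfil3, with exact permutation p-values from 0.221 for Cry2 to 0.872 for Arntl. As folds, the 95% confidence intervals ran from 0.453 to 2.61 for Arntl, from 0.850 to 1.52 for Clock, from 0.539 to 1.26 for Cry1, from 0.953 to 1.21 for Cry2 and from 0.50 to 1.46 for Nfil3. The sign of Arntl turned when single mice were left out, with a range from −0.22 to 0.54. In these fits Clock ranged from 0.09 to 0.30, Cry1 from −0.41 to −0.11, Cry2 from 0.05 to 0.13 and Nfil3 from −0.47 to −0.05. The vehicle mice are shared by both of these comparisons.

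Between the 2 inocula, 1 of the 5 members was lower with the HFD-microbiota at an unadjusted limma p under 0.05 and 0 were higher. Of all genes 1.15% were lower and 1.56% higher, and 2.71% differed in either direction. This member was Cry2, with means of 3.43 ± 0.10 (SD, n = 5) with the HFD-microbiota and 3.61 ± 0.13 (SD, n = 5) with the lean microbiota. Its log2 fold change was −0.18 (SE 0.08), the limma p 0.0477 and the exact permutation p 0.0317. Of all genes 3.1% had an exact permutation p under 0.05. As a fold Cry2 stood at 0.882, with a 95% confidence interval from 0.779 to 0.999. Conv + LM mouse 14 was highest and Conv + OM(HFD) mouse 30 lowest, and the other 8 livers of these groups lay between 3.42 and 3.63. The limma call was lost in 11 of 16 fits that left out 1 mouse, with values of −0.21 to −0.13 over these fits, and in 10 of 14 other settings, among them the slide as a block. With the mean of all Cry2 probes the sign turned, to 0.09. Its adjusted p in limma was 0.999. Arntl, Clock, Cry1 and Nfil3 stood at 0.17, 0.20, 0.15 and 0.43, with exact permutation p-values of 0.778, 0.373, 0.643 and 0.270. Without 1 mouse at a time Arntl ranged from −0.25 to 0.53 and Cry1 from −0.05 to 0.34.

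Adjusted over all genes by the Benjamini-Hochberg method, limma left 0 members and 0 genes in each of the 3 comparisons, with a smallest adjusted p of 0.997. The moderated F test over all 3 groups gave 0 of 5 members at an unadjusted p under 0.05, where 2.95% of all genes passed, and its p was 0.885 for Arntl, 0.184 for Clock, 0.634 for Cry1, 0.131 for Cry2 and 0.537 for Nfil3. For each of the 5 members the groups overlapped in each comparison, as they did for all but 0.236%, 0.28% and 0.457% of the genes, in the order given above. The intervals for Arntl and Nfil3 were wide because of the spread between mice of a group, and differences within them could not be detected with 5 or 6 mice.

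**Figure D3:**
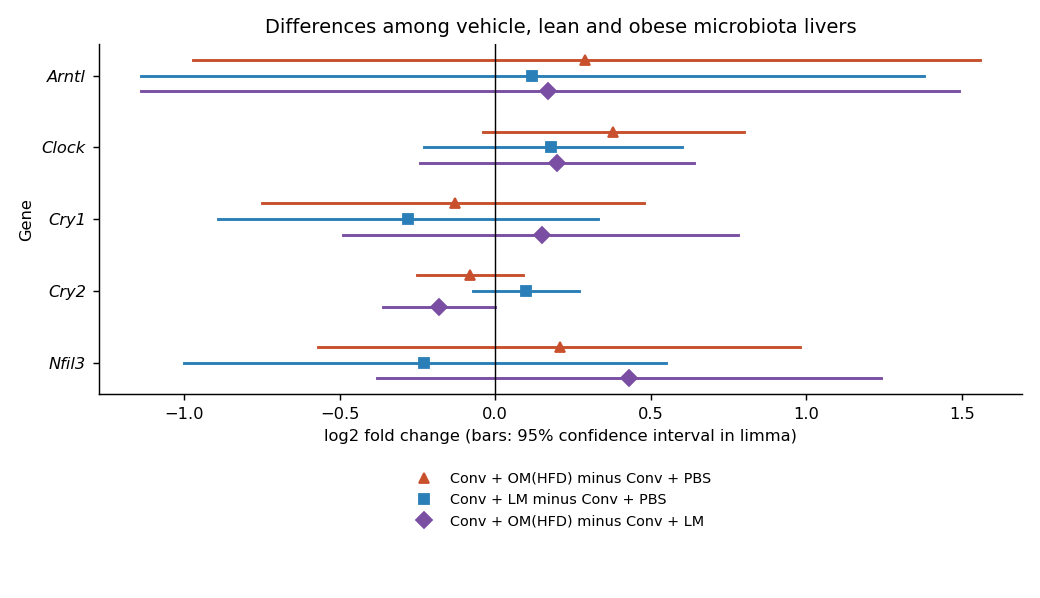
Log2 fold change of each member in the 3 comparisons (points) with the 95% confidence interval in limma (bars). Of the 15 intervals, the one for Cry2 between the inocula ends just below 0, and those of Arntl are the widest.

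The probes of a gene did not always give the same answer. Arntl is read on chromosome 7 of mm9 from 120456978 to 120457037. The 2 other probes for the same transcript, well above background on 14 and 11 arrays, varied with it among mice of a group (r = 0.92 and 0.90). Their log2 fold changes against vehicle were 0.53 and −0.05 with the HFD-microbiota and −0.13 and 0.08 with the lean microbiota. Between the inocula they were 0.66 and −0.13, so the sign of Arntl also depended on the probe. The probe for Nfil3 on chromosome 13, from 53062578 to 53062637, overlaps a second that varied with it (r = 0.97). Clock, on chromosome 5 from 76639992 to 76640051, had 2 further probes above background, at r = 0.74 and 0.69. Their log2 fold changes were 0.14 and 0.37 for the HFD-microbiota against vehicle. Cry1, on chromosome 10 from 84647094 to 84647153, had another at r = 0.78. It gave −0.33 and −0.21 against vehicle with the HFD-microbiota and the lean microbiota, and −0.12 between the inocula, where the probe used gave 0.15. For Cry2 the probes disagreed. The probe on chromosome 2 from 92243807 to 92243866, for the RefSeq transcript, gave the values above. In a limma fit over all probes above the filter its p between the inocula was 0.0532. The probe from 92251417 to 92251476, designed on another transcript model of the gene, varied with it at r = 0.19. Its log2 fold change with the HFD-microbiota was 0.36 against vehicle, past the unadjusted threshold of limma over all probes, and 0.16 against the lean microbiota. Another, from 92265472 to 92265531, on a further model, varied at r = −0.08 and gave 0.22 and 0.30 in these comparisons. The direction of Cry2 with the HFD-microbiota thus depended on the probe.

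Among mice of the same group, Arntl, Clock, Cry1 and Nfil3 rose and fell together, and Cry2 did not follow them. In Conv + PBS mice, mouse 6 was highest for each of these 4 genes, as were mouse 17 in Conv + LM mice and mouse 30 in Conv + OM(HFD) mice. At the other end, mouse 25 was lowest in its group for Arntl, Clock and Cry1, mouse 2 for Arntl, Clock and Nfil3, and mouse 13 for Arntl and Nfil3. The lowest livers for the remaining genes were of other mice, with mouse 14 lowest in Conv + LM mice for Clock and Cry1, mouse 26 in Conv + OM(HFD) mice for Nfil3 and mouse 1 in Conv + PBS mice for Cry1. Mice 6, 17 and 30 also carry the highest number of their groups, and the lowest Arntl levels belonged to mice with low numbers. What the numbers stand for, such as an order of killing, is not given in the sources used here. The levels of these genes change over the day, and the part of the hour of death in their spread and in the relations below was not tested. Relations were computed on deviations from group means over the 16 mice, for 10 pairs of members, with a permutation test within groups.

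Arntl and Clock, the partners of the activating pair, had Pearson's r of 0.85 (permutation p = 2e-05, adjusted over the 10 pairs 0.00015) and Spearman's rho of 0.85 (permutation p = 6e-05, adjusted 0.0003). Arntl and Cry1 had r of 0.88 (permutation p = 0.00014, adjusted 0.0003) and rho of 0.88 (permutation p = 0.00015, adjusted 0.000375). For Arntl and Nfil3 r was 0.86 (permutation p = 9e-05, adjusted 0.0003) and rho 0.85 (permutation p = 0.00012, adjusted 0.000375). Clock and Cry1 had r of 0.87 and rho of 0.88, Clock and Nfil3 0.82 and 0.75, and Cry1 and Nfil3 0.83 and 0.80. The adjusted permutation p-values of these 3 pairs were 0.00015, 0.000333 and 0.0003 for r and 0.0003, 0.00295 and 0.00092 for rho.

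These 6 relations did not rest on single mice or on 1 group. Without the 2 mice farthest from the median, r was between 0.74 and 0.92. Within groups it was 0.85 to 0.93 in Conv + PBS mice, 0.71 to 0.95 in Conv + LM mice and 0.75 to 0.99 in Conv + OM(HFD) mice. The arrays lay on 2 slides of 8, and r was 0.78 to 0.88 on the first and 0.83 to 0.95 on the second. Over 24 other settings and left-out mice for each pair, r stayed between 0.70 and 0.95, with permutation p of at most 0.00605. Without Conv + PBS mouse 1 and Conv + OM(HFD) mouse 25, r was 0.81 for Arntl and Clock, 0.83 for Arntl and Cry1 and 0.87 for Arntl and Nfil3. Without Conv + LM mouse 15 the 6 pairs had r of 0.83 to 0.88.

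Cry2 had r of −0.10 with Arntl, −0.17 with Clock, −0.13 with Cry1 and −0.05 with Nfil3, with adjusted permutation p from 0.778 to 0.857. Spearman's rho ranged from −0.29 to −0.01, with adjusted permutation p from 0.420 to 0.972. Within groups these r ranged from −0.76 to 0.58 and kept no common sign. None of its 3 probes followed Arntl, with r of −0.10, −0.01 and 0.17.

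**Figure D4:**
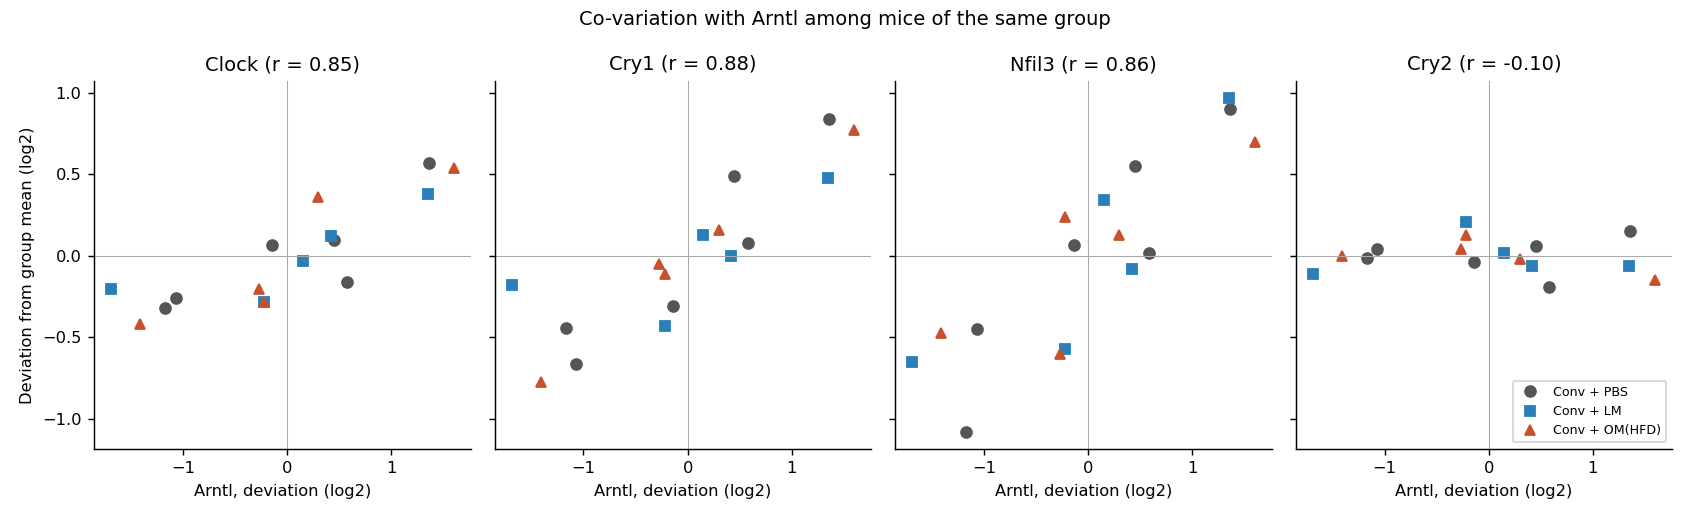
Deviation of Clock, Cry1, Nfil3 and Cry2 from the group mean (vertical, log2) against that of Arntl (horizontal, log2) in 16 mice, with groups marked by colour and shape. The first 3 genes rise with Arntl in every group (r = 0.85, 0.88 and 0.86) and Cry2 stays near 0 (r = −0.10).

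Many liver genes shared this variation, so the relations between members are read against all genes. Over 20326 genes without missing values, r with Arntl had a median of 0.09, a 5th percentile of −0.66 and a 95th percentile of 0.71. Cry1 ranked 102nd in r with Arntl, Nfil3 151st, Clock 186th and Cry2 13222nd. Seen from Cry1, Arntl ranked 28th and Clock 31st.

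The genes outside the members that were most like Arntl across the 16 mice were Arl4a (a small GTPase of the ARF family) and Ccng2 (cyclin G2), both at r = 0.98. They were followed by Clpx (the unfoldase of a mitochondrial protease) at 0.96, and by Hnf4a (a nuclear receptor of hepatocyte identity) and Plin5 (a lipid droplet protein) at 0.95. Those most opposed were Rbm43 at −0.97, Dbp and Engase at −0.95, Tmem194 at −0.94 and Pdcd2l at −0.93. Clock was most like Acot2 and Acsl1, enzymes that handle fatty acyl-CoA (both r = 0.94), and Ppp2r2d (0.93). Slc25a34, a mitochondrial carrier, headed the lists of both Cry1 and Nfil3 (r = 0.93 with each), followed by Naip5 and Gm7467 for Cry1 (0.93) and by Zfp292 and Ttll8 for Nfil3 (0.92). Cry2 was most like Pard6b and Dffb (0.84) and Ccnl2 (0.83). With 20322 genes compared over 16 mice, these are the ends of a long list and carry no test.

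A list of 40 further clock genes, of which 38 were tested, sets the members beside the rest of the loop. With the HFD-microbiota against vehicle, 0 of 38 were higher and 1 was lower at an unadjusted limma p under 0.05 (1.53% and 1.73% of all genes), with a median log2 fold change of 0.02 (−0.0004 over all genes). The gene was Wee1, a kinase that restrains mitosis, at −0.34 (limma p = 0.0174, exact permutation p = 0.0303). With the lean microbiota, 0 were higher and 1 lower against vehicle (1.72% and 2.23% of all genes), Gys2, the liver glycogen synthase, at −0.21 (limma p = 0.0183, exact permutation p = 0.0195). Directly between the inocula, 1 was lower and 0 higher (1.15% and 1.56% of all genes), Per2, at −0.35 (limma p = 0.0232, exact permutation p = 0.0635). A single call among 38 genes is near these shares. In the exact permutation test 4 of 38 passed with the HFD-microbiota against vehicle (3.22% of all genes), 1 higher and 3 lower. Besides Wee1 these were Timeless at 0.37 (exact permutation p = 0.0346), Per2 at −0.26 (0.0433) and Gys2 at −0.15 (0.0498), which limma did not call. With the lean microbiota against vehicle 1 of 38 passed it, Gys2, and between the inocula 0 of 38. After adjustment over all genes 0 passed in limma. The list was written with earlier results of these data known and several of its genes co-varied. These counts therefore do not test the list as a whole.

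Between mice of the same group, the 5 repressors measured all had r below 0 with Arntl. Bhlhe40, also named DEC1, had −0.83, Per3 −0.69, Per1 and Ciart −0.40 and Per2 −0.30. Bhlhe41 was well above background on 1 array and was not tested. Among the receptors that share the RORE, the activator Rora had r of 0.78, and the repressors Nr1d1 and Nr1d2 −0.59 and −0.24, while Rorb was well above background on 0 of 16 arrays and was not tested. Rora also ran with Nfil3 (0.69), Clock (0.75) and Cry1 (0.70).

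Of the PAR bZIP activators that compete with NFIL3 at D-boxes, Dbp opposed Arntl at −0.95 and Nfil3 at −0.87, Tef had −0.62 with Arntl and −0.53 with Nfil3, and Hlf 0.14 and −0.17. Dbp had the second widest spread of the list, with an SD of 0.83. Its lowest, median and highest levels were 4.24, 5.20 and 6.17 with vehicle, 4.01, 5.11 and 6.02 with the lean microbiota and 3.66, 5.26 and 6.03 with the HFD-microbiota. Its 3 groups thus covered almost the same range, as those of Arntl did. Arntl2, the paralogue of Arntl, had r of −0.65 with Arntl.

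The 9 kinases and ubiquitin ligases that act on clock proteins had r with Arntl from −0.46 (Btrc) to 0.67 (Fbxw11), with a median of 0.25. The 6 co-regulators had a median of −0.22, with Ncor1 at 0.79 and Timeless at −0.79 as the ends. Of 10 outputs, 6 had r above 0, and Elovl3, a fatty acid elongase, ran closest with Arntl (0.91), with Clock (0.84), with Cry1 (0.82) and with Nfil3 (0.79). Por, Nampt and Alas1 followed at 0.77, 0.76 and 0.71. Over the whole list, 6 genes lay above the 95th percentile of all genes and 4 below the 5th.

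**Figure D5:**
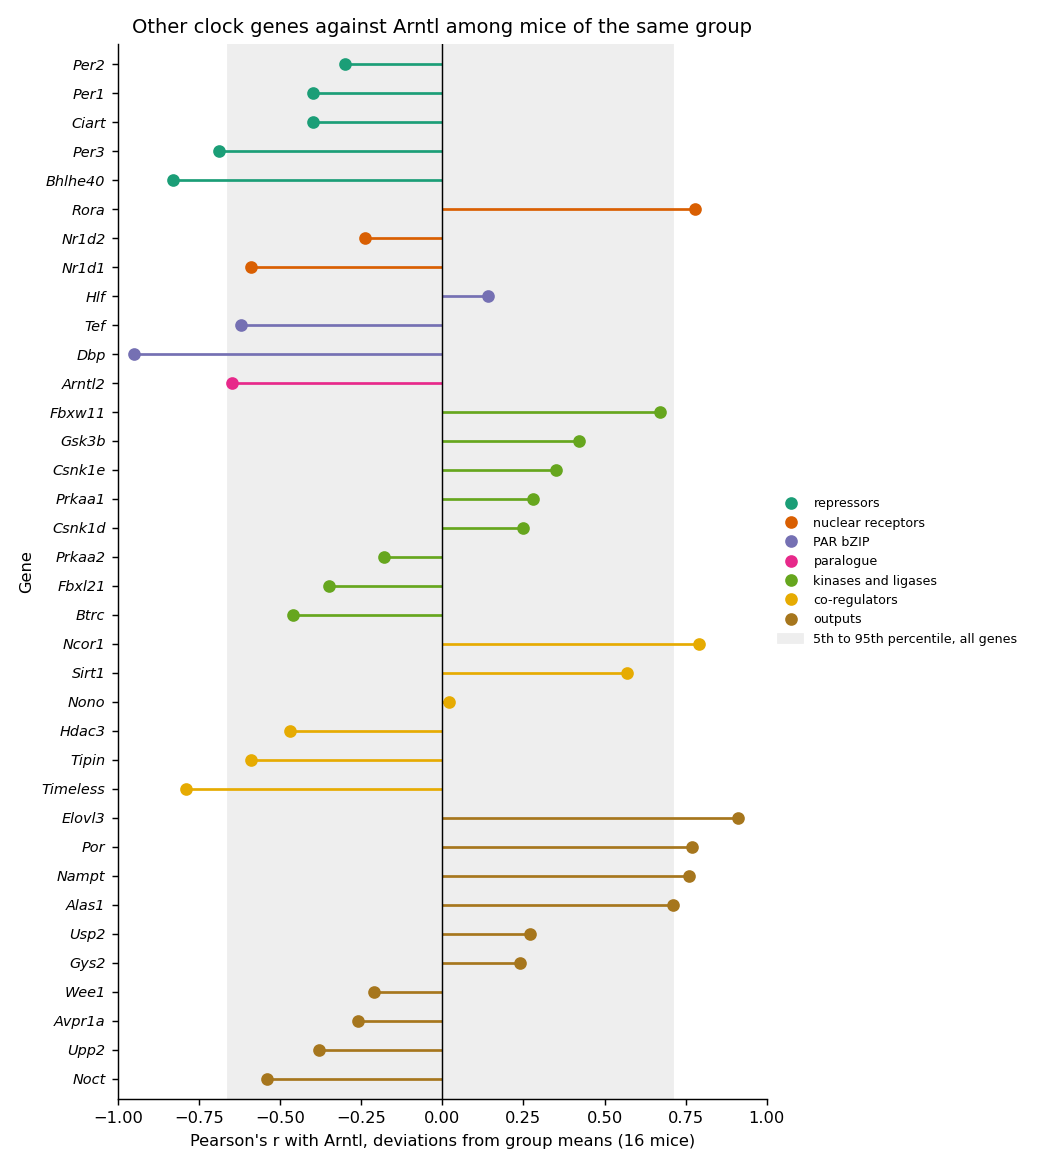
Pearson's r with Arntl (horizontal) of other clock genes (vertical), grouped by role and computed on deviations from group means in 16 mice; the grey band spans the 5th to 95th percentile of all genes (−0.66 to 0.71). Dbp (−0.95) and Bhlhe40 (−0.83) lie below the band and Elovl3 (0.91), Ncor1 (0.79) and Rora (0.78) above it, and the 5 repressors are all below 0.

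Lists of genes that respond to cues of the clock were set beside Arntl, and the fasting and temperature lists passed the test while the glucocorticoid list did not after adjustment. Over 10 relations of Arntl with list means of log2 levels or array measures, the mean of 8 fasting and PPARα genes had r of 0.93 (permutation p = 1e-05, the smallest the permutations can give, adjusted 0.0001) and rho of 0.89 (permutation p = 5e-05). On slides 1 and 2 this r was 0.92 and 0.97. Within this list Pdk4, Angptl4 and Cyp4a14 had r of 0.89 each, Fgf21, a hormone of the fasted liver, 0.74, Cpt1a 0.41, and Pck1 and Ppargc1a 0.20 and 0.08. Pdk4, which spares glucose by inhibiting pyruvate dehydrogenase, differed 57.7-fold between livers, with levels of −0.90 to 4.22 with vehicle, −1.07 to 3.80 with the lean microbiota and −1.63 to 3.44 with the HFD-microbiota. It had r of 0.91 with Cry1, 0.90 with Nfil3 and 0.86 with Clock.

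The mean of 6 temperature-sensitive genes had r of 0.79 with Arntl (permutation p = 0.0006, adjusted 0.003) and rho of 0.82 (permutation p = 0.00049). On slides 1 and 2 it was 0.93 and 0.91. Hsph1, Hspa8, Hsp90aa1 and Hspa1b, which encode heat shock proteins, ran with Arntl (0.87, 0.81, 0.74 and 0.70), the cold-inducible Cirbp against it (−0.81), and Rbm3 had 0.00. For 5 glucocorticoid-responsive genes r was 0.56 (permutation p = 0.0353, adjusted 0.0882) and rho 0.55 (permutation p = 0.0367). This r was 0.87 on slide 1 and 0.38 on slide 2, and it fell to 0.30 without the 2 mice farthest from the median, so that relation rested on them. Fkbp5 had r of 0.92, Zbtb16 0.70, Tat 0.54, Tsc22d3 −0.05 and Sgk1 −0.46. Of these 19 cue genes, 1 was lower at an unadjusted limma p under 0.05 in any comparison, Hspa1b with the lean microbiota (−0.87, limma p = 0.0445, exact permutation p = 0.0671), where 2.23% of all genes were lower. The part of these cues in the spread of Arntl was not tested.

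Cell type markers were set beside Arntl in the same way. The hepatocyte mean, in which Tat is shared with the glucocorticoid list, had r of 0.72 with Arntl (permutation p = 0.00438, adjusted 0.0146) and rho of 0.71 (permutation p = 0.00511). The r was 0.95 on slide 1 and 0.51 on slide 2. Neutrophil and Kupffer cell means had r of −0.48 and −0.35 (adjusted permutation p = 0.138 and 0.30), which became −0.01 and 0.17 without Conv + PBS mouse 1 and Conv + OM(HFD) mouse 25. On slide 1 they were −0.44 and −0.39, and on slide 2 −0.93 and −0.68. The sinusoidal endothelium had r of 0.32 and rho of 0.18 (adjusted permutation p of r = 0.334), with r of 0.74 on slide 1 and −0.11 on slide 2. Red blood cells had r of −0.02, with −0.17 and −0.16 on the slides. The brightness of the array, as its 75th percentile, had r of −0.47 (permutation p = 0.0829, adjusted 0.138), and the share of probes well above background −0.06. On slides 1 and 2 these were −0.68 and −0.11 for the percentile and −0.48 and 0.75 for the share. The part of cell composition and of array brightness in these relations was not tested.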

How the data were processed

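Liver RNA of 16 mice (6 Conv + PBS, 5 Conv + LM, 5 Conv + OM(HFD)) was measured on 1-colour Agilent arrays, with 200 ng of RNA labelled per mouse. The authors extracted spot intensity with Agilent Feature Extraction 10.10.1.1 (submitters' processing notes), which had subtracted background within each array. The authors also deposited log2 values, which matched quantile-normalized log2 median intensity (largest difference 0.132) and served as an alternative. Mice were assigned to groups from the labels.

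From the deposited intensity, control spots and non-uniform spots were left out, spots of a probe averaged, and log2 intensity expressed relative to the 75th percentile of its array. Probes well above background on at least 5 arrays were kept, and the probe with the highest mean stood for a gene. Group differences came from limma 3.58.1 (lmFit, eBayes) in R 4.3.3, with Benjamini-Hochberg adjustment, and by exact two-sided permutation tests (smallest p 0.00216 for 5 against 6 mice, 0.00794 for 5 against 5). A p sets a difference or relation against the spread between these mice, and does not cover the spread between donor pools or cages. Co-variation used 100000 permutations within groups and 20326 genes without missing values plus Arntl itself (numpy 2.4.6, pandas 2.3.3, scipy 1.17.1, Python 3.11.15). Figures were drawn with matplotlib 3.10.9. The fits and correlations were tested on simulated data.

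The genes named are the members, the clock, cue and marker lists written from general knowledge, and the 3 or 5 genes most like each member (for Arntl also the 5 least like it). Members and lists were chosen with earlier results of these data known. Some genes of these lists are counted but not reported here by name. Gene names are those of the array design. Of 20403 names, 14634 matched a current RefSeq symbol and 701 a synonym, and all 6 members matched. Probe positions are on mm9 and promoter windows on GRCm38.p6.

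Alternatives were normexp background correction (offset 50), quantile normalization, the values deposited by the authors, other filters on dim probes, the slide as a block or each slide alone, array weights, a fit of the compared groups alone, the probe mean per gene, the methods' t-test, the exact permutation test and leaving out each mouse. Leaving out 2 livers with high neutrophil and Kupffer cell genes was added after seeing the data. No spot was saturated, and the 75th percentile of intensity was 223.1 to 323.7. The number of mice limits the precision.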

Additional observations from a re-analysis of the deposited data

Results flagged for a closer look

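In 129 groups of mice, 1 for each of the 5 members and 38 other clock genes in each treatment group, 5 had a mouse far from the others, none of them for a member. Chance gives about 1 in 20. Tef was 5.87 in Conv + LM mouse 17, where the nearest mouse of its group had 6.31, and Hlf was 1.85 in the same mouse (nearest 2.12). Fbxw11 was 3.22 in Conv + PBS mouse 6 (nearest 3.06) and Por was 7.98 in Conv + OM(HFD) mouse 30 (nearest 7.58). Gys2 was 6.78 in Conv + PBS mouse 1 (nearest 6.99). Mice 6, 17 and 30 are those with the highest Arntl level of their groups.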

How the results depend on the processing

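Of 450 fold changes of members recomputed under other settings, 20 had the opposite sign, each at a p above 0.05. The number of members past the unadjusted threshold with the HFD-microbiota against vehicle was 1, not 0, with normexp and with the authors' values (Clock, 0.39 and 0.43), and 0 to 1 without each mouse. Between the inocula it was 0, not 1, with quantile normalization, the authors' values, no filter, the slide as a block, slide 2 alone, array weights, a fit of the compared groups alone, the probe mean per gene and without the 2 livers with high neutrophil and Kupffer cell genes, and 0 to 1 without each mouse. The call of Cry2 held in 4 of 14 settings and in 5 of 16 fits without 1 mouse, with log2 fold changes of −0.21 to −0.13 in the latter. On slide 1 alone Nfil3 took its place (log2 fold change 1.2).

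Signs turned as follows. With the mean of all probes, Cry2 was 0.17 (OM(HFD) against PBS) and 0.094 (OM(HFD) against LM). On slide 2 alone Nfil3 was −0.18 against PBS and −0.21 against LM with the HFD-microbiota and 0.027 with the lean microbiota, and Arntl and Cry1 were −0.45 and −0.0052 between the inocula. On slide 1 alone Arntl and Clock were −0.55 and −0.0009 with the lean microbiota, and Arntl was −0.094 without the 2 livers. Without each mouse in turn, Arntl ranged from −0.11 to 0.65 (OM(HFD) against PBS), −0.22 to 0.54 (LM against PBS) and −0.25 to 0.53 (OM(HFD) against LM), Cry1 from −0.33 to 0.058 (OM(HFD) against PBS) and −0.048 to 0.34 (OM(HFD) against LM), and Nfil3 from −0.0094 to 0.39 (OM(HFD) against PBS). The r of Cry2 turned with the mean of all probes (Arntl 0.13, Clock 0.46, Cry1 0.22, Nfil3 0.26), within slides (Arntl 0.0041, Nfil3 0.083) and without the 2 farthest mice (Nfil3 0.11), and without each mouse ranged from −0.30 to 0.11 for Arntl, −0.47 to 0.033 for Clock, −0.42 to 0.070 for Cry1 and −0.26 to 0.13 for Nfil3. The cause of these changes was not tested.

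Normexp, which adds a constant of 50 to every signal, lowered the SD of the dim Arntl and Cry1 to 0.60 and 0.33. The adjusted count over all genes was 0 under each setting. No paired analysis was possible because the labels share no mouse number between groups. Dimness left Npas2 unmeasured.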
